A study of Homo sapiens with 12 samples.

Results

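The genes described here are 43 interferon-stimulated and antiviral sensor genes, measured in Beas-2b, a human airway epithelial line that was immortalised in culture. They were taken by gene name from a deposited table of 58735 annotated genes, each name was found, and all 43 passed the filter on low counts that left 16702 genes for testing. Messenger RNA was sequenced from 12 libraries in 4 groups of 3, biological replicates by the design text of the series. ANT1 knockout (KO) cells, made by CRISPR in SLC25A4, received 10 mg/ml bleomycin, a drug that breaks DNA and can drive cells into senescence, over 2 days, as the labels give dose and time (KO bleomycin), or were kept in medium without it (KO control). Wild type (WT) cells were given the same bleomycin treatment (WT bleomycin) or medium (WT control). All cells were Beas-2b, and the KO cells are described as clones without saying how many stand behind the libraries, so genotype and clone cannot be told apart. ANT1, the product of SLC25A4, carries ATP out of mitochondria in exchange for ADP. The series is on pulmonary fibrosis, by its title. In bulk samples of this kind, fewer cells that express a gene and less RNA per cell cannot be told apart.

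Type I and type III interferons are secreted proteins that bind receptors on the same and neighbouring cells and activate the kinases JAK1 and TYK2. These kinases activate STAT2, which joins IRF9 in a complex that binds the interferon-stimulated response element (ISRE) in the promoters of its target genes. The products of those genes sense viral nucleic acid, block its translation or replication, and pass the signal on. Airway epithelial cells are both a source and a target of interferons during viral infection.

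The ISRE letters were looked for in the promoters because the complex of STAT2 and IRF9 binds that element. The 43 genes were taken by name and not by the element. RefSeq promoter sequences (GRCh38.p14) were matched for 35 of the 43 genes. The core GAAA, any 2 bases, GAAA, searched on both strands in the 250 bases before the start with overlapping matches allowed, was in 19 of these 35 promoters (54.3%) and in 1061 of all 35116 promoters of the table (3.02%). The core TTC, any 3 bases, GAA of the gamma-activated site (GAS), bound by STAT dimers and searched in the same way, was in 11 of 35 (31.4%) and in 2306 of all promoters (6.57%). The stretches below belong to EPSTI1 and IFIT1, which were among the genes with the smallest adjusted p under bleomycin, to ISG15 and IFI44, which passed the test between genotypes, and to IFI6, the gene with the highest level per length. They are written 5′ to 3′ on the strand of the gene, all lie before the start, and capitals mark the matches to the ISRE core or to its reverse complement.
EPSTI1: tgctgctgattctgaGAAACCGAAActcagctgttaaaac
IFIT1: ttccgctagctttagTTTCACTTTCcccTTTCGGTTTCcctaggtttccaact
ISG15: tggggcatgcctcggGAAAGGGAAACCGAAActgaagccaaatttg
IFI44: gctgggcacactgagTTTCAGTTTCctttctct
IFI6: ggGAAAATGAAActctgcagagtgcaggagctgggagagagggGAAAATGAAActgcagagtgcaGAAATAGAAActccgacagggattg
They lie at chr13:42992267-42992306 (minus strand), chr10:89392492-89392544 (plus), chr1:1013369-1013414 (plus), chr1:78649756-78649788 (plus) and chr1:27672261-27672350 (minus). For SP110 and SAMD9L, which had called changes under bleomycin in both genotypes, no match was found in the window, and the bases next to the start are shown.
SP110: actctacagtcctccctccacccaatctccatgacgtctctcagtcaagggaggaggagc
SAMD9L: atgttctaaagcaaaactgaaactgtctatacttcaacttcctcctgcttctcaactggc
These lie at chr2:230225637-230225696 and chr7:93148386-93148445, both on the minus strand. A match describes the letters only, and a missing match says only that these letters are not in the window.

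Levels are given as CPM, the counts of a gene relative to the scaled library total. Library totals ran from 15753944 to 21923695 counts, and a count of 0 allows up to 3 counts, or 0.137 to 0.190 CPM. SLC25A4, the targeted gene, was at 4.70, 4.09 and 5.002 CPM in KO bleomycin, 5.08, 6.97 and 4.81 CPM in KO control, 16.1, 22.4 and 27.5 CPM in WT bleomycin and 22.8, 16.6 and 18.3 CPM in WT control. Every KO library lay below every WT library. KO control replicate 2 stood apart: mitochondrial chromosome genes held 0.364% of its counts, against 3.86% to 5.13% in the other libraries. The epithelial markers KRT8 and KRT18 were at 415 to 762 and 117 to 310 CPM, while EPCAM and CDH1, surface markers of epithelial cells, were low, at 0.745 to 2.49 and 0.489 to 2.96 CPM. KRT19 was at 51.6 to 76.3 CPM with bleomycin and 15.5 to 29.1 CPM without, and the basal markers KRT5, KRT14 and TP63 were at under 1 CPM in every library. Of the mesenchymal markers, VIM was at 820.1 to 1243 CPM, and COL1A1 at 463 to 1200 CPM in 11 libraries and 3474 CPM in KO control replicate 2. PDGFRB was at 7.48 to 13.5 CPM with bleomycin and 34.0 to 51.4 CPM without. The other mesenchymal markers listed were nearly absent, with 0 to 6 counts for PDGFRA, 0 to 3 for DCN and 0 for LUM. Of 8 leukocyte markers 6 had at most 8 counts in any library. The other two were CD14, at 1.61 to 5.32 CPM with bleomycin and 19.5 to 40.8 CPM without, and ITGAM, at 67 to 106 counts with bleomycin and 0 to 2 counts without. Together the 8 leukocyte markers summed to 7.11 to 11.3 CPM in KO bleomycin, 29.9 to 41.0 CPM in KO control, 7.38 to 8.44 CPM in WT bleomycin and 19.5 to 23.9 CPM in WT control, and their part in the results below was not tested. Of 4 plasmacytoid dendritic cell markers, CLEC4C and LILRA4 had at most 1 count in any library. IL3RA had 2 to 10 counts and TCF4 63 to 150 counts.

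The first comparison asks whether loss of ANT1 changed these genes in unstressed cells. KO control libraries held more RNA of these 43 genes, chosen with earlier results of these data known, than WT control libraries did. The 43 genes together made up 2674 to 3147 CPM in KO control and 1362 to 1852 CPM in WT control, ranges that do not overlap. All 43 log2 fold changes (KO control over WT control) were above 0, as were 52.8% of all genes tested, and their median was 0.74, against 0.02 over all genes. In 28 of 43 genes every KO control library lay above every WT control library, which held for 6.83% of all genes tested, and in 0 genes was it the reverse, which held for 5.41%. Past edgeR's adjusted threshold of 0.05 were 2 of 43, both higher in KO control, where 0.168% of all genes were called and 0.108% were called higher. At an unadjusted p under 0.05, 31 of 43 were higher, against 6.48% of all genes, and 0 lower, against 3.46%. Another test on the same counts, DESeq2, called 17 of the 43 higher and 0 lower, and edgeR without a filter on low counts called 20. Over all genes those fits called 145 and 211 higher. DESeq2 gave an adjusted p to only part of the 38341 genes that entered its fit. It called 202 in either direction, or 1.64% of the genes with an adjusted p. The fit without a filter called 0.550% of its 38341 genes higher.

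**Figure D1:**
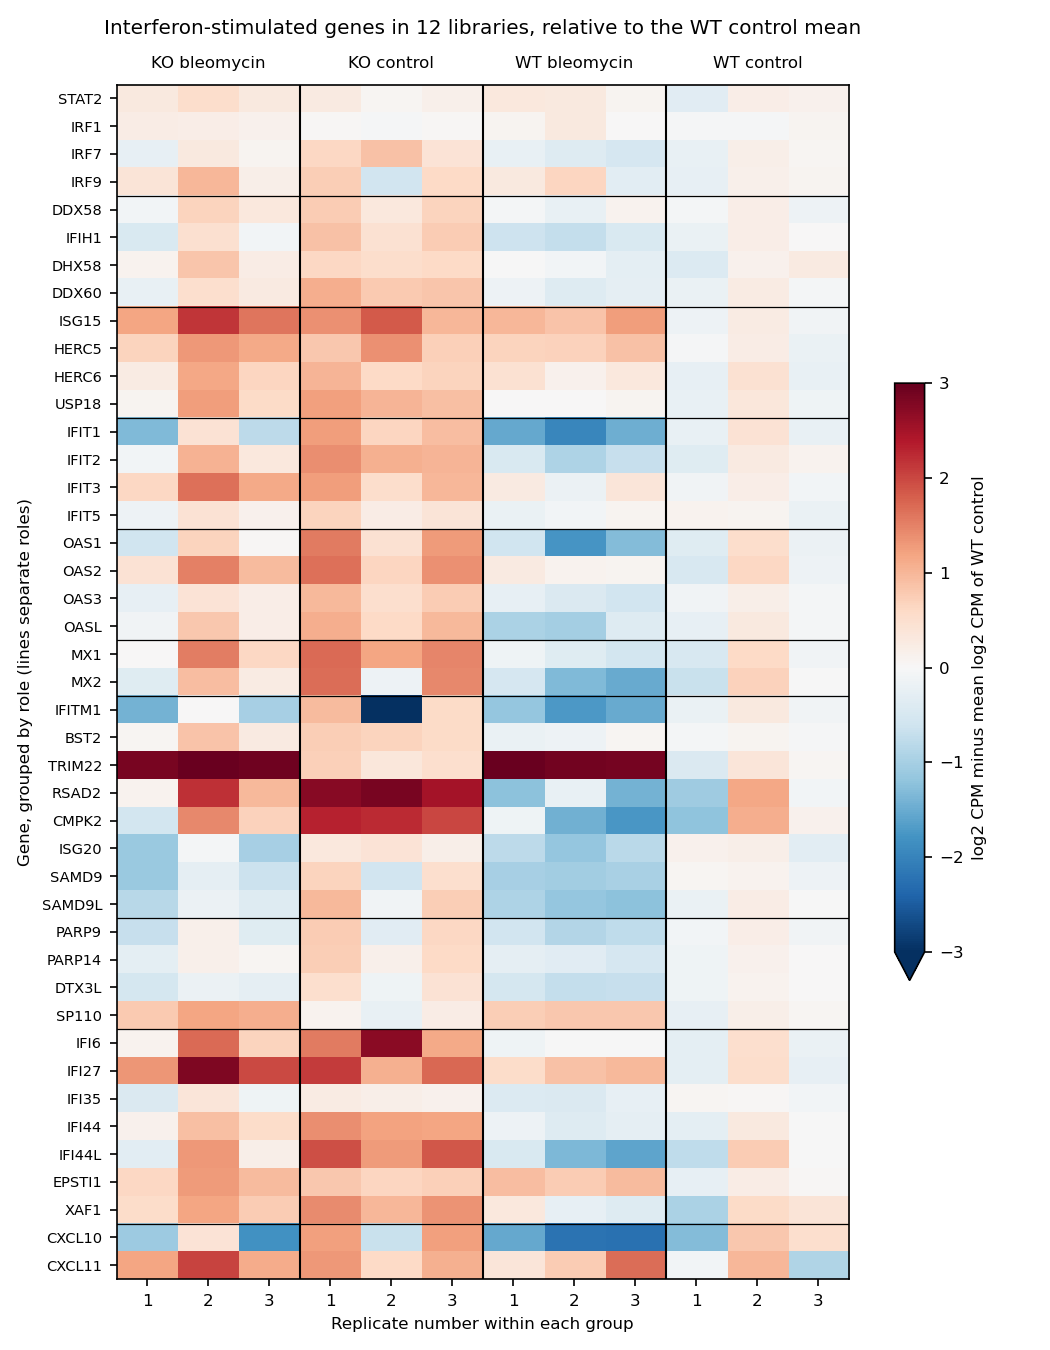
Level of each of the 43 genes in each of the 12 libraries, as log2 CPM minus the mean log2 CPM of the 3 WT control libraries (colour, limited to -3 at the low end), with columns by group and replicate and rows by role. KO control columns are mostly above the WT control mean, TRIM22 is high in all 6 bleomycin libraries, and IFITM1 is low in KO control replicate 2.

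ISG15, a ubiquitin-like protein that is attached to other proteins during antiviral responses, lies at chr1:1001138-1014540 on the plus strand (GRCh38). Its level was 178, 247 and 136 CPM in KO control, against 61.7, 81.6 and 64.1 CPM in WT control. The lowest KO control library was well above the highest WT control library. ISG15 was 2.71-fold higher in KO control (log2 fold change 1.44, SE 0.25, edgeR adjusted p = 0.0478). IFI44, a cytoplasmic protein induced by interferon, lies at chr1:78649796-78664078 on the plus strand. It was at 34.1, 29.9 and 29.8 CPM in KO control, against 10.6, 15.8 and 13.0 CPM in WT control. Here too the groups did not overlap, and IFI44 was 2.38-fold higher in KO control (1.25, SE 0.19, edgeR adjusted p = 0.0238). Both calls were fragile. ISG15 lost its call without any 1 of 9 libraries, with an adjusted p between 0.0835 and 0.239 in those fits, and kept it without KO bleomycin replicate 1, KO bleomycin replicate 2 or KO control replicate 3. IFI44 lost its call without any 1 of 8 libraries (adjusted p between 0.0557 and 0.124), and kept it without KO bleomycin replicate 1 or 2 or KO control replicate 2 or 3. Both also missed the threshold when the bleomycin libraries were left out of the fit (adjusted p = 0.593 for ISG15 and 0.443 for IFI44), although the log2 fold changes were 1.42 and 1.24. Without a filter on low counts ISG15 missed it as well (adjusted p = 0.0686), while IFI44 passed.

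The largest fold changes between the control groups belonged to genes that missed the threshold. RSAD2, which encodes viperin, an enzyme that makes a chain-terminating nucleotide, was at 5.68, 6.10 and 4.75 CPM in KO control, against 0.305, 1.82 and 0.703 CPM in WT control. Its neighbour CMPK2, a mitochondrial nucleotide kinase, was at 5.26, 5.04 and 4.21 CPM in KO control, against 0.356, 2.18 and 1.08 CPM in WT control. IFI6, a small membrane protein that restrains apoptosis, was at 398, 895 and 299.7 CPM in KO control, against 111, 193 and 118 CPM in WT control. In these 3 genes the KO control libraries lay above all WT control libraries. The log2 fold changes were 2.51 for RSAD2 (SE 0.56, edgeR adjusted p = 0.122), 1.98 for CMPK2 (SE 0.55, adjusted p = 0.25) and 1.92 for IFI6 (SE 0.45, adjusted p = 0.15). Without KO control replicate 2, the library with the highest IFI6, the IFI6 value was 1.31 (adjusted p = 0.363). RSAD2 and CMPK2 lie on opposite strands and share 14 exonic bases, and both had few reads, with 94, 98 and 87 counts for RSAD2 in KO control against 6, 40 and 13 in WT control.

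**Figure D2:**
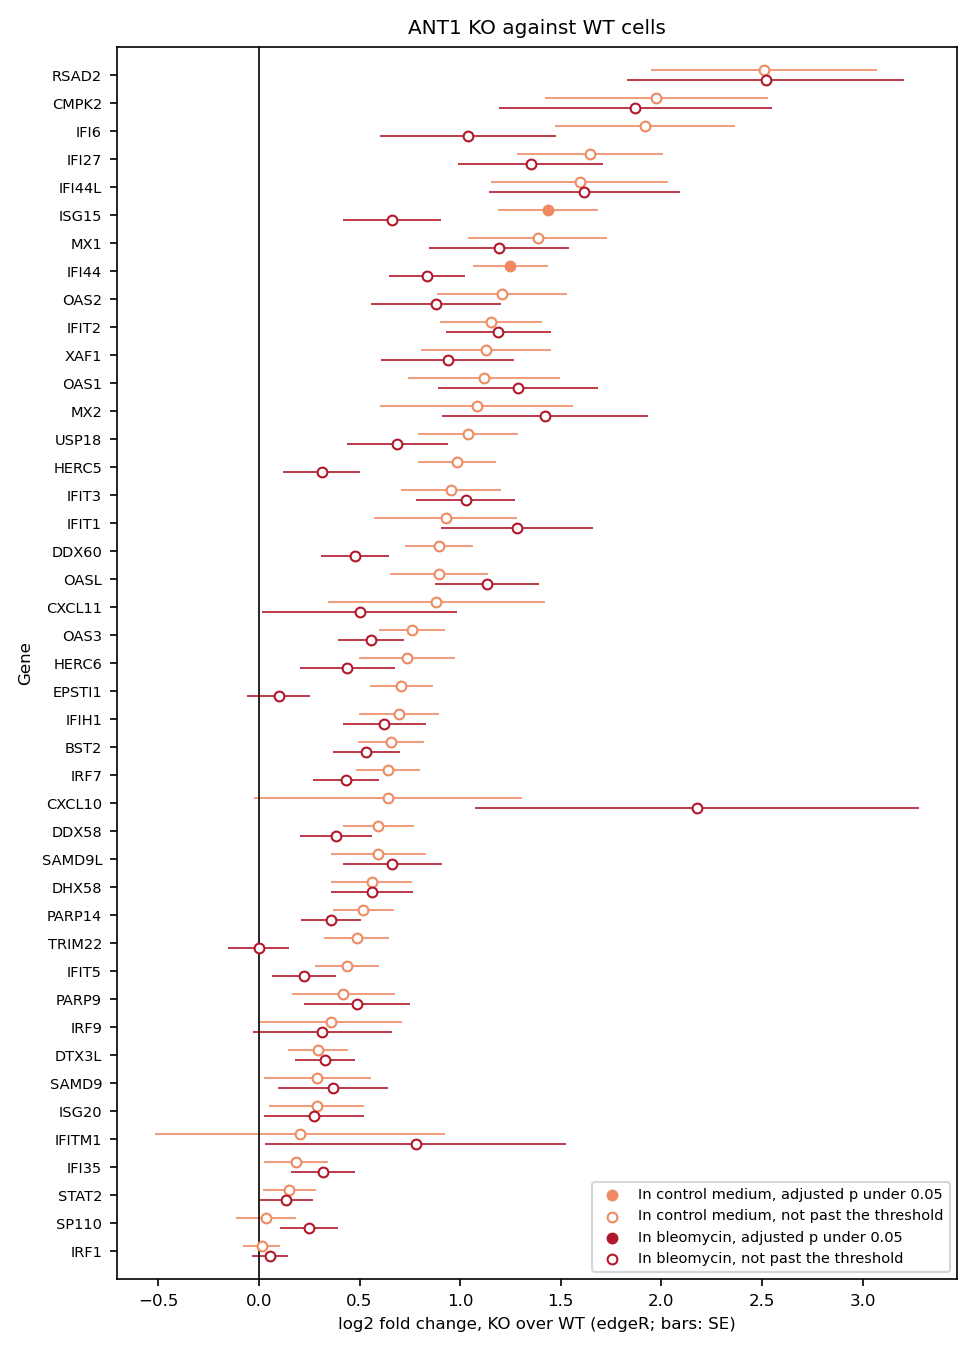
log2 fold change of each gene, KO over WT, in control medium and in bleomycin (points), with the standard error from edgeR (bars) and filled points for an adjusted p under 0.05. Nearly every point lies to the right of 0, and only ISG15 and IFI44 in control medium are filled.

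By role, the median difference between the control groups was 0.25 in the transcription factors and 0.36 in the group of PARP9, PARP14, DTX3L and SP110, and it ran from 0.54 to 1.25 in the other roles. STAT2, IRF1, IRF7 and IRF9 had log2 fold changes from 0.01 to 0.64, and in 1 of the 4, IRF7, the KO control libraries all lay above the WT control libraries. IRF7, the factor that amplifies type I interferon production, was at 56.3, 67.9 and 48.5 CPM in KO control, against 31.1, 41.6 and 37.8 CPM in WT control (0.64, SE 0.16, edgeR adjusted p = 0.182). IRF1 was at 48.0, 45.8 and 47.7 CPM in KO control and at 45.4, 45.7 and 49.1 CPM in WT control, which overlap. The RNA sensors DDX58 (RIG-I), IFIH1 (MDA5), DHX58 (LGP2) and DDX60 had log2 fold changes from 0.56 to 0.90, and all 4 were without overlap between the control groups. The same held for all 4 genes of the ISG15 system (0.74 to 1.44), which are ISG15, the ligase HERC5 that attaches it, HERC6, and the protease USP18 that removes it. It also held for the 4 IFIT genes (0.44 to 1.15), whose products bind foreign RNA, and for all 7 of the group of IFI6, IFI27, IFI35, IFI44, IFI44L, EPSTI1 and XAF1 (0.18 to 1.92).

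Of the OAS family (0.76 to 1.21), 3 of 4 were without overlap, OAS1 being the exception. In this family OAS1, OAS2 and OAS3 are the enzymes that activate the nuclease RNase L. MX1, a dynamin-like GTPase that traps viral nucleocapsids, was at 117, 81.6 and 99.5 CPM in KO control, against 25.7, 54.6 and 33.6 CPM in WT control (1.38, SE 0.35, edgeR adjusted p = 0.189). Its relative MX2 overlapped between the groups (1.08, SE 0.48, edgeR adjusted p = 0.498). The other restriction factors ran from 0.20 to 2.51, and 3 of 8 (BST2, RSAD2 and CMPK2) were without overlap. Among PARP9, PARP14, DTX3L and SP110, values ran from 0.03 to 0.52, and PARP14 alone was without overlap. The chemokines CXCL10 and CXCL11, ligands of the receptor CXCR3, overlapped (0.64 and 0.88). Several of these genes have close relatives (the IFIT, OAS, MX, SAMD9 and IFITM genes), and how the authors' counting treated reads shared between relatives is not given, so values of single members of these families are uncertain to that extent.

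KO control replicate 2 bears on this comparison in both directions. It was the lowest of its group for 31 of 43 genes, where it was the lowest for 43.3% of all genes. IFITM1, a membrane protein that blocks virus entry, was at 89.5, 3.30 and 69.4 CPM in KO control, against 40.3, 57.3 and 43.4 CPM in WT control. The low value is that of replicate 2, and the other two KO control libraries lay above every WT control library. With all libraries its log2 fold change was 0.20 (SE 0.72, edgeR adjusted p = 0.926), and without that library it was 0.76 (adjusted p = 0.616). IFITM1 shares 351 exonic bases with IFITM2 on the same strand, so reads of the 2 genes may be mixed. Without KO control replicate 2 the median over the 43 genes was 0.85, and 5 were called higher (DTX3L, HERC5, IFI44, PARP14 and SAMD9L), with ISG15 no longer among them (adjusted p = 0.145). Calls over all genes grew as well, to 116 higher, or 0.674% of 17204 genes.

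The same question in bleomycin gave values of the same sign. In 42 of 43 genes the log2 fold change of KO bleomycin over WT bleomycin was above 0, as in 49.9% of all genes, with a median of 0.56 against -0.00 over all genes. The exception was TRIM22 (-0.00). In 18 of 43 genes all KO bleomycin libraries lay above all WT bleomycin libraries, which held for 8.99% of all genes, and in 0 genes below, which held for 9.60%. With edgeR 0 of 43 passed, where 0.0479% of all genes were called and 0.00599% were called higher. At an unadjusted p under 0.05, 27 of 43 were higher and 0 lower, against 3.28% and 3.33% of all genes. DESeq2 called 5 of the 43 higher, and 26 over all genes. In either direction it called 74, or 0.375% of the genes to which it gave an adjusted p. Without KO control replicate 2, 2 genes were called higher, IFI44 and OASL, where 0.924% of all genes were called higher. The 43 genes summed to 1764, 3186 and 2270.3 CPM in KO bleomycin and to 1669, 1575 and 1624 CPM in WT bleomycin.

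The KO bleomycin libraries differed among themselves along these genes. Replicate 2 was the highest of its group for 42 of 43 genes, against 36.2% of all genes, and replicate 1 was the lowest for 39, against 33.8%. The median standard deviation of log2 CPM within the group was 0.43 over the 43 genes and 0.13 over all genes. In the other groups the 43 genes and all genes had medians of 0.24 and 0.28 in KO control, 0.15 and 0.13 in WT bleomycin, and 0.27 and 0.14 in WT control. In WT control, replicate 2 was the highest for 39 of 43 genes, against 27.3% of all genes, and replicate 1 the lowest for 35, against 37.3%. The cause of these shared shifts was not tested. Without KO bleomycin replicate 2 the median of KO bleomycin over WT bleomycin was 0.31, 40 of 43 values were above 0, and 12 of 43 were higher at an unadjusted p under 0.05.

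IFIT2 showed the difference in bleomycin with 12.1, 26.4 and 15.9 CPM in KO bleomycin, against 9.29, 6.71 and 7.85 CPM in WT bleomycin (1.19, SE 0.26, edgeR adjusted p = 0.229). The lowest KO library was above the highest WT library. OASL, an oligoadenylate synthetase relative that enhances RIG-I signalling, was at 7.30, 13.9 and 9.08 CPM in KO bleomycin, against 4.03, 3.84 and 5.98 CPM in WT bleomycin (1.13, SE 0.26, edgeR adjusted p = 0.234). RSAD2 had 0.825, 3.83 and 1.58 CPM in KO bleomycin, against 0.258, 0.631 and 0.214 CPM in WT bleomycin (2.52, SE 0.69, edgeR adjusted p = 0.379). In both genes the groups were again without overlap. For ISG15 the KO bleomycin libraries, at 157, 302 and 209 CPM, overlapped with WT bleomycin, at 136, 123.4 and 163 CPM (0.66, SE 0.24, edgeR adjusted p = 0.59). These 3 RSAD2 values in WT bleomycin rest on 5, 11 and 4 counts.

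**Figure D3:**
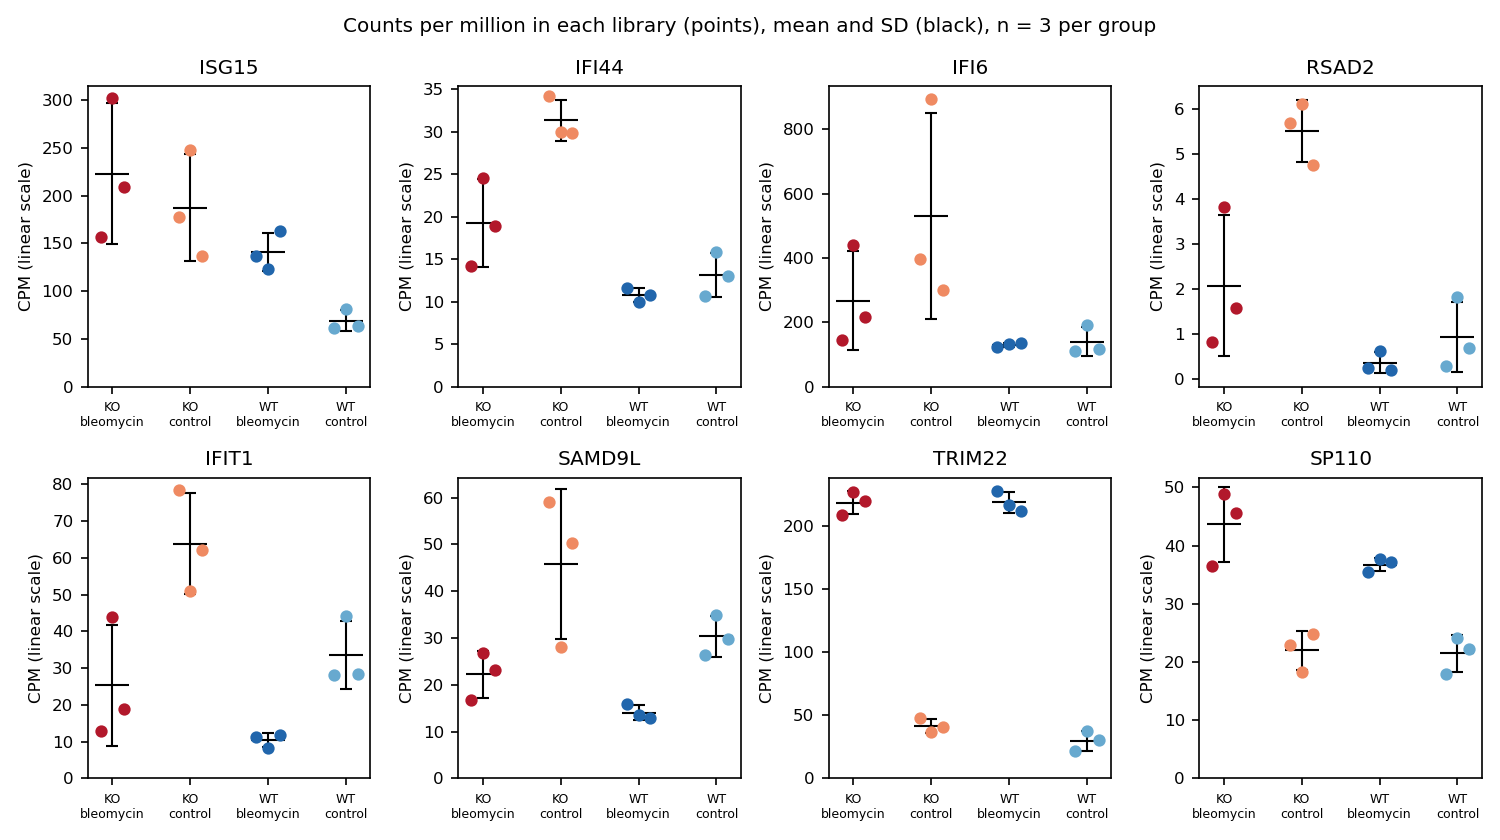
CPM of 8 of the genes in each library (points) with the group mean and SD (black lines, n = 3), on linear axes that start at 0 or just below and differ between panels. ISG15 in KO control lies between 136 and 247 CPM and in WT control between 61.7 and 81.6 CPM, and TRIM22 lies between 209 and 228 CPM in both bleomycin groups.

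Bleomycin itself changed a large share of all transcripts, and the interferon-stimulated genes moved in both directions. In KO cells 2 of the 43 rose, TRIM22 and SP110, and 16 fell (edgeR), where 22.5% of all genes were called higher and 20.7% lower. In WT cells 5 rose, TRIM22, SP110, EPSTI1, ISG15 and HERC5, and 11 fell, where 23.9% of all genes were called higher and 19.6% lower. The total called was 18 of 43 in KO cells and 16 of 43 in WT cells, near the 43.2% and 43.5% of all genes. The log2 fold change was above 0 for 11 of 43 genes in KO cells and 14 in WT cells, against 50.3% and 51.6% of all genes. The median log2 fold change over the 43 genes was -0.55 in KO cells and -0.29 in WT cells, against 0.00 and 0.02 over all genes. Without overlap between bleomycin and control were 4 genes higher and 10 lower in KO cells (27.4% and 23.9% of all genes), and 6 higher and 16 lower in WT cells (32.1% and 29.2%).

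**Figure D4:**
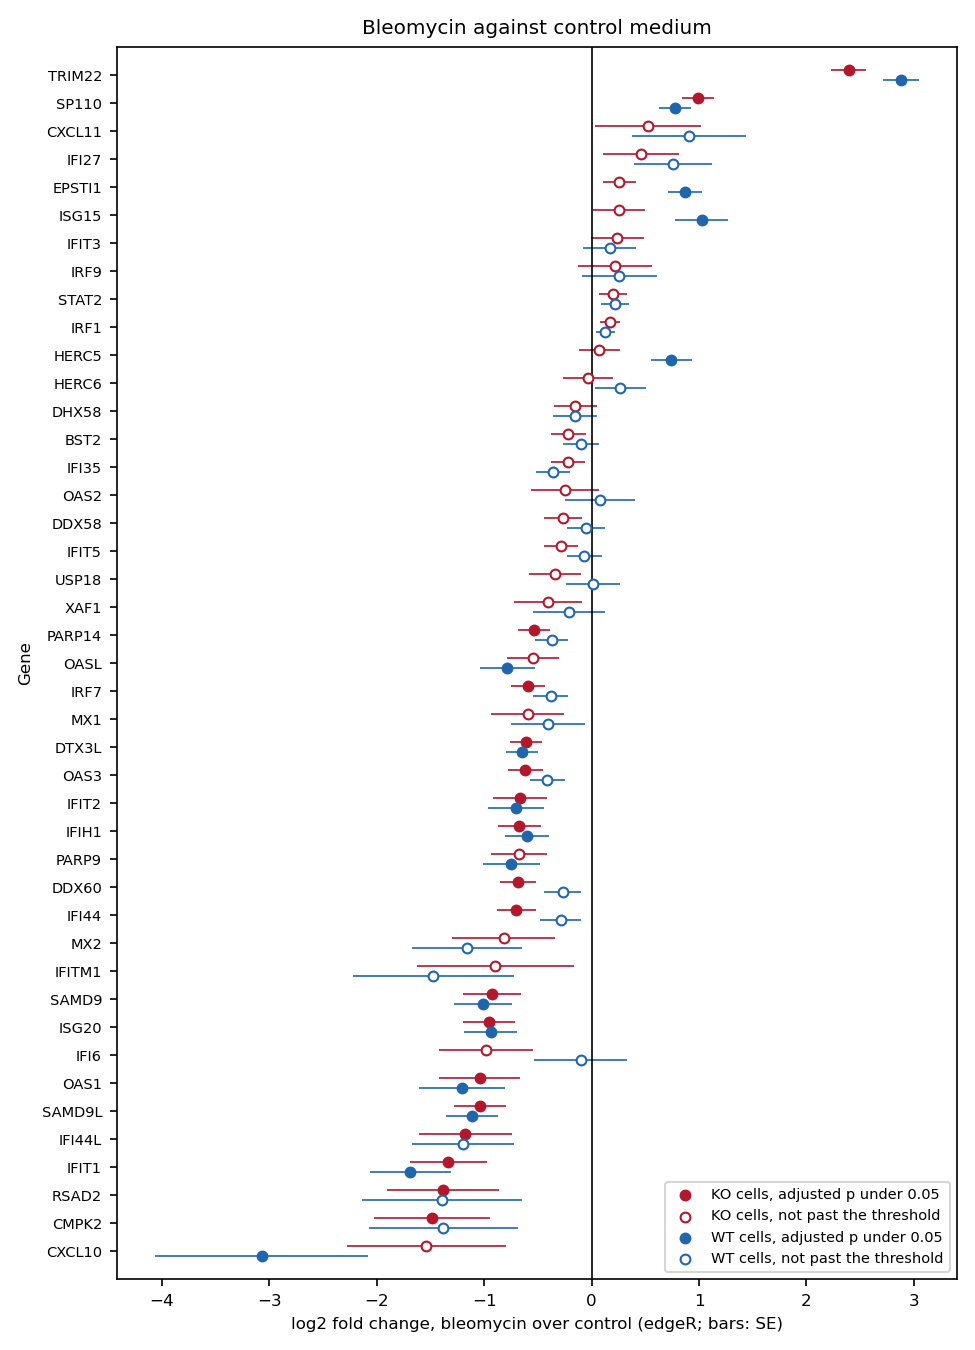
log2 fold change of each gene, bleomycin over control, in KO and in WT cells (points), with the standard error from edgeR (bars) and filled points for an adjusted p under 0.05. TRIM22 and SP110 are filled to the right of 0 in both genotypes, and most of the other filled points lie to the left.

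TRIM22, a ubiquitin ligase that restricts several viruses and is known as a target of p53 as well as of interferon, had the largest change (chr11:5689689-5737089, plus strand). It was at 209, 227 and 219.6 CPM in KO bleomycin, against 47.4, 36.5 and 40.8 CPM in KO control. In WT cells it was at 228, 216 and 211 CPM in bleomycin, against 21.5, 37.5 and 30.0 CPM in control. The bleomycin libraries of both genotypes covered the same narrow range, far above every control library. The increase was 5.25-fold in KO cells (2.39, SE 0.16, edgeR adjusted p = 1.11e-07) and 7.36-fold in WT cells (2.88, SE 0.17, edgeR adjusted p = 1.89e-08). SP110, a nuclear body protein, was at 36.5, 48.9 and 45.7 CPM in KO bleomycin, against 22.9, 18.2 and 24.8 CPM in KO control. It was at 35.4, 37.7 and 37.1 CPM in WT bleomycin, against 17.96, 24.2 and 22.3 CPM in WT control. SP110 rose 1.99-fold in KO cells (0.99, SE 0.15, edgeR adjusted p = 0.000139) and 1.71-fold in WT cells (0.77, SE 0.15, edgeR adjusted p = 0.000812), without overlap in either genotype. Both genes kept their calls without any 1 of the 12 libraries.

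ISG15, HERC5 and EPSTI1 rose in WT cells. ISG15 was at 136, 123.4 and 163 CPM in WT bleomycin, against 61.7, 81.6 and 64.1 CPM in WT control (2.04-fold, 1.03, SE 0.25, edgeR adjusted p = 0.00456). HERC5, the main ligase for ISG15, was at 31.1, 31.6 and 35.5 CPM in WT bleomycin, against 19.0, 22.7 and 17.0 CPM in WT control (1.67-fold, 0.74, SE 0.19, edgeR adjusted p = 0.00705). EPSTI1, named for its induction in epithelial cells grown with stromal cells, was at 47.6, 42.3 and 48.0 CPM in WT bleomycin, against 21.0, 29.1 and 25.4 CPM in WT control (1.83-fold, 0.87, SE 0.16, edgeR adjusted p = 0.000591). None of the 3 overlapped between the WT groups, and the calls held without any 1 of the 12 libraries.

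In KO cells the same 3 genes overlapped between bleomycin and control, and every KO control library lay above every WT control library. ISG15 was at 157, 302 and 209 CPM in KO bleomycin, against 178, 247 and 136 CPM in KO control (0.25, SE 0.24, edgeR adjusted p = 0.429). HERC5 was at 30.8, 48.2 and 42.8 CPM in KO bleomycin, against 33.9, 50.3 and 31.9 CPM in KO control (0.07, SE 0.19, edgeR adjusted p = 0.791). EPSTI1 was at 38.3, 60.7 and 48.4 CPM in KO bleomycin, against 43.6, 38.8 and 40.9 CPM in KO control (0.26, SE 0.16, edgeR adjusted p = 0.198). The test of the difference itself, the interaction (KO response minus WT response), gave -0.77 for ISG15 (SE 0.34), -0.67 for HERC5 (SE 0.27), -0.61 for EPSTI1 (SE 0.22) and -0.49 for TRIM22 (SE 0.22), each with an edgeR adjusted p of 0.899. These 4 were the genes with an unadjusted interaction p under 0.05, all lower, against 2.80% of all genes lower and 1.81% higher. In edgeR 0 of the 43 and 0% of all genes passed for the interaction, and DESeq2 likewise called 0 of the 43. The median interaction was -0.07 over the 43 genes and -0.03 over all genes.

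The genes that fell in both genotypes were IFIH1, IFIT1, IFIT2, OAS1, ISG20, SAMD9, SAMD9L and DTX3L. IFIT1, which binds RNA whose cap lacks methylation, was at 12.9, 44.0 and 18.9 CPM in KO bleomycin, against 78.4, 51.0 and 62.2 CPM in KO control. In WT cells it was at 11.1, 8.31 and 11.8 CPM in bleomycin, against 28.0, 44.3 and 28.3 CPM in control. All bleomycin libraries lay below the control libraries of their genotype, and KO bleomycin replicate 2 was the nearest to them. IFIT1 fell 2.52-fold in KO cells (-1.33, SE 0.36, edgeR adjusted p = 0.0103) and 3.22-fold in WT cells (-1.69, SE 0.38, edgeR adjusted p = 0.00301). Without KO bleomycin replicate 2 its log2 fold change in KO cells was -2.001. IFIT2, its paralog, was at 33.7, 27.0 and 26.0 CPM in KO control and 9.87, 15.4 and 13.7 CPM in WT control, with the bleomycin values given above. It fell by 0.67 in KO cells (SE 0.25, edgeR adjusted p = 0.0454), where KO bleomycin replicate 2 overlapped with control, and by 0.71 in WT cells (SE 0.26, edgeR adjusted p = 0.0446), where the groups did not overlap.

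SAMD9 and SAMD9L, neighbouring paralogs that block translation of viral RNA and restrain growth, fell as a pair. SAMD9L was at 16.8, 26.7 and 23.2 CPM in KO bleomycin, against 59.1, 28.0 and 50.3 CPM in KO control, and at 15.8, 13.5 and 12.9 CPM in WT bleomycin, against 26.4, 35.0 and 29.7 CPM in WT control. The KO groups came close only through KO control replicate 2. SAMD9L fell 2.06-fold in KO cells (-1.04, SE 0.24, edgeR adjusted p = 0.0037) and 2.16-fold in WT cells (-1.11, SE 0.24, edgeR adjusted p = 0.00254). SAMD9 was at 26.6, 48.2 and 37.2 CPM in KO bleomycin, against 92.0, 38.8 and 83.0 CPM in KO control, and at 29.2, 28.3 and 29.5 CPM in WT bleomycin, against 60.2, 62.2 and 52.3 CPM in WT control. It fell 1.91-fold in KO cells, with overlap (-0.93, SE 0.27, edgeR adjusted p = 0.0143), and 2.01-fold in WT cells, without overlap (-1.01, SE 0.27, edgeR adjusted p = 0.00918).

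ISG20, an exonuclease that degrades single-stranded RNA, was at 5.90, 12.4 and 6.42 CPM in KO bleomycin, against 16.2, 17.2 and 14.6 CPM in KO control, and at 7.43, 5.73 and 7.32 CPM in WT bleomycin, against 14.2, 14.7 and 10.4 CPM in WT control. It was lower in every bleomycin library than in the control libraries of the same genotype, 1.94-fold in KO cells (-0.95, SE 0.24, edgeR adjusted p = 0.00653) and 1.92-fold in WT cells (-0.94, SE 0.25, edgeR adjusted p = 0.00712). DTX3L, a ubiquitin ligase that works with PARP9, was at 60.8, 78.0 and 73.2 CPM in KO bleomycin, against 125, 80.5 and 119 CPM in KO control, and at 60.8, 53.4 and 54.6 CPM in WT bleomycin, against 80.6, 94.6 and 88.8 CPM in WT control. Its decrease was 1.53-fold in KO cells (-0.61, SE 0.15, edgeR adjusted p = 0.00519) and 1.56-fold in WT cells (-0.64, SE 0.15, edgeR adjusted p = 0.0035), without overlap in either genotype. Its partner PARP9, at 23.7, 42.7 and 29.8 CPM in KO bleomycin, against 65.2, 30.3 and 58.7 CPM in KO control, overlapped and did not pass (-0.68, SE 0.26, edgeR adjusted p = 0.0511). In WT cells PARP9 was at 25.6, 20.8 and 22.3 CPM in bleomycin, against 35.8, 44.0 and 35.4 CPM in control, and fell (-0.75, SE 0.26, edgeR adjusted p = 0.0356). DTX3L and PARP9 share 217 exonic bases on opposite strands, and whether counting used strand is not given.

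The RNA sensor IFIH1 was at 16.1, 30.8 and 21.0 CPM in KO bleomycin, against 40.6, 30.3 and 37.7 CPM in KO control, and at 14.4, 13.6 and 16.1 CPM in WT bleomycin, against 19.2, 25.4 and 22.4 CPM in WT control. The WT groups were separate, and the KO groups overlapped. It fell 1.60-fold in KO cells (-0.67, SE 0.20, edgeR adjusted p = 0.0153) and 1.52-fold in WT cells (-0.60, SE 0.20, edgeR adjusted p = 0.0288). OAS1 was at 11.7, 28.5 and 18.3 CPM in KO bleomycin, against 52.8, 24.4 and 43.3 CPM in KO control, and at 11.7, 5.16 and 7.10 CPM in WT bleomycin, against 13.9, 25.8 and 15.7 CPM in WT control. It too overlapped in KO cells only, and fell 2.06-fold there (-1.04, SE 0.38, edgeR adjusted p = 0.0419) and 2.31-fold in WT cells (-1.21, SE 0.40, edgeR adjusted p = 0.0268).

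Past the threshold in KO cells but not in WT cells were IRF7, DDX60, OAS3, PARP14, IFI44, IFI44L, RSAD2 and CMPK2, and for none of them did the interaction pass (edgeR adjusted p of 0.899 to 1). IFI44 was at 14.2, 24.5 and 18.9 CPM in KO bleomycin, against 34.1, 29.9 and 29.8 CPM in KO control (-0.70, SE 0.18, edgeR adjusted p = 0.00749). In WT cells it was at 11.7, 9.92 and 10.8 CPM in bleomycin, against 10.6, 15.8 and 13.0 CPM in control (-0.29, SE 0.19, edgeR adjusted p = 0.248). The KO groups were separate and the WT groups overlapped. DDX60, a helicase that promotes RIG-I signalling, was at 33.8, 56.7 and 48.1 CPM in KO bleomycin, against 83.9, 68.2 and 71.1 CPM in KO control (-0.69, SE 0.17, edgeR adjusted p = 0.00523). Its WT values were 35.9, 30.6 and 33.1 CPM in bleomycin, against 34.8, 46.8 and 38.3 CPM in control (-0.27, SE 0.17, edgeR adjusted p = 0.225). As with IFI44, every KO bleomycin library was below every KO control library and the WT groups overlapped.

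OAS3 was at 147, 231 and 201 CPM in KO bleomycin, against 344, 249 and 296 CPM in KO control (-0.62, SE 0.16, edgeR adjusted p = 0.00815). In WT cells it was at 148, 129.7 and 117 CPM in bleomycin, against 161, 196 and 167 CPM in control (-0.41, SE 0.16, edgeR adjusted p = 0.0564). The groups were without overlap in both genotypes. IRF7 was at 30.8, 45.0 and 38.7 CPM in KO bleomycin, below all KO control libraries (-0.59, SE 0.16, edgeR adjusted p = 0.00966), and at 31.1, 28.1 and 25.7 CPM in WT bleomycin (-0.38, SE 0.16, edgeR adjusted p = 0.0741). PARP14, which attaches ADP-ribose to proteins, was at 94.1, 129 and 119.9 CPM in KO bleomycin, against 193, 129 and 175 CPM in KO control (-0.53, SE 0.15, edgeR adjusted p = 0.0116), and at 95.5, 91.3 and 80.9 CPM in WT bleomycin, against 105, 125 and 116 CPM in WT control (-0.37, SE 0.15, edgeR adjusted p = 0.0616). IFI44L, a paralog of IFI44, was at 7.05, 21.9 and 9.95 CPM in KO bleomycin, against 34.1, 21.6 and 32.4 CPM in KO control (-1.17, SE 0.44, edgeR adjusted p = 0.0452). The WT values of IFI44L were 6.40, 3.38 and 2.88 CPM in bleomycin, against 5.19, 15.1 and 8.81 CPM in control (-1.20, SE 0.48, edgeR adjusted p = 0.0599), close to the KO value. RSAD2 and CMPK2 fell by 1.38 (SE 0.52, edgeR adjusted p = 0.0469) and 1.49 (SE 0.54, edgeR adjusted p = 0.0411) in KO cells, and their WT values of -1.39 and -1.38 had SEs of 0.74 and 0.70.

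PARP9, described above, CXCL10 and OASL fell past the threshold in WT cells but not in KO cells, and their interactions did not pass (edgeR adjusted p of 0.899 to 0.982). CXCL10, a chemokine that draws activated T cells, had 3, 1 and 1 counts in WT bleomycin, against 4, 27 and 18 counts in WT control. It was scarce everywhere, with 4, 17 and 2 counts in KO bleomycin and 28, 6 and 31 counts in KO control. Its log2 fold change was -3.07 in WT cells (SE 0.99, edgeR adjusted p = 0.0235) and -1.54 in KO cells (SE 0.74, edgeR adjusted p = 0.11). OASL fell by 0.78 in WT cells (SE 0.26, edgeR adjusted p = 0.0253), where 4.03, 3.84 and 5.98 CPM in bleomycin stood against 6.61, 9.67 and 7.57 CPM in control. In KO cells 7.30, 13.9 and 9.08 CPM in bleomycin stood against 16.9, 12.01 and 15.6 CPM in control, with overlap (-0.55, SE 0.24, edgeR adjusted p = 0.085).

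The remaining 19 genes passed in no comparison. Their log2 fold changes ran from -0.98 (IFI6) to 0.52 (CXCL11) in KO cells and from -1.47 (IFITM1) to 0.90 (CXCL11) in WT cells. IFITM1 was at 17.3, 46.5 and 23.2 CPM in KO bleomycin, against 89.5, 3.30 and 69.4 CPM in KO control, and at 20.6, 13.9 and 16.2 CPM in WT bleomycin, against 40.3, 57.3 and 43.4 CPM in WT control. The WT groups did not overlap. With all libraries it missed the threshold (-0.90 in KO cells, edgeR adjusted p = 0.35, and -1.47 in WT cells, edgeR adjusted p = 0.135). Without KO control replicate 2 it passed in both (-1.45, edgeR adjusted p = 0.0164, and -1.48, edgeR adjusted p = 0.0109). STAT2, a subunit of the complex that binds the ISRE, stayed between 72.9 and 131 CPM in all 12 libraries, and IRF1 between 45.4 and 56.9 CPM. IRF9, the DNA-binding subunit, ran from 1.68 to 5.21 CPM.

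Many of the bleomycin calls were lost when 1 library was left out. Of the 16 decreases in KO cells 8 held without any 1 of the 12 libraries (DDX60, DTX3L, IFI44, IFIT1, IRF7, ISG20, OAS3 and SAMD9L). Without KO bleomycin replicate 1, 8 genes fell, without KO bleomycin replicate 2, 25, and without KO bleomycin replicate 3 or KO control replicate 1, 10 each. Over all genes 2906, 2677, 2725 and 3578 fell in these fits, in that order, against 3453 with all libraries. PARP14 lost its call without KO bleomycin replicate 1 (edgeR adjusted p = 0.0557), SAMD9 without that library (0.0591) or KO control replicate 1 (0.0573), and IFIH1 without it (0.0619) or KO bleomycin replicate 3 (0.0651). OAS1 lost its call without KO bleomycin replicate 1 or 3, KO control replicate 1 or 3, WT bleomycin replicate 3 or WT control replicate 3 (edgeR adjusted p of 0.0532 to 0.149). CMPK2 lost it without KO bleomycin replicate 1 or 3, any KO control library, WT bleomycin replicate 2 or WT control replicate 3 (0.0521 to 0.127). IFIT2 kept its call only without KO bleomycin replicate 2, KO control replicate 3 or WT control replicate 1 or 2 (0.0525 to 0.16 without each of the other 8). IFI44L kept it only without KO bleomycin replicate 2, WT bleomycin replicate 1 or WT control replicate 1 or 2 (0.0515 to 0.146 without each of the other 8), and RSAD2 only without KO bleomycin replicate 2 or WT control replicate 1 or 2 (0.0526 to 0.144 without each of the other 9). IFI44L and RSAD2 were at -1.79 and -2.18 without KO bleomycin replicate 2. 

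Of the 11 decreases in WT cells 5 held without any 1 library (DTX3L, IFIT1, ISG20, SAMD9 and SAMD9L). Without WT bleomycin replicate 2 or WT control replicate 2, 5 genes fell, and without WT bleomycin replicate 3 or WT control replicate 3, 7 each. Over all genes 2627, 2793, 2777 and 2738 fell in these fits, in that order, against 3272 with all libraries. Without WT control replicate 2, the highest of its group, edgeR adjusted p was 0.0871 for CXCL10, 0.106 for IFIH1, 0.107 for OASL, 0.112 for PARP9, 0.118 for OAS1 and 0.153 for IFIT2. Each of these 6 also lost its call without WT bleomycin replicate 2 (edgeR adjusted p of 0.0749 to 0.148). Further losses were those of IFIH1 without WT bleomycin replicate 1 (0.0768) or WT control replicate 3 (0.0642), OASL without WT bleomycin replicate 1 (0.0902), and OAS1 without WT bleomycin replicate 3 (0.0837). CXCL10 was lost without WT bleomycin replicate 3 (0.077) or WT control replicate 3 (0.0577), and PARP9 without any 1 WT library (0.053 to 0.112). IFIT2 was also lost without KO bleomycin replicate 3 (0.0559), KO control replicate 2 (0.09), WT bleomycin replicate 3 (0.103) or WT control replicate 3 (0.104).

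Per length, in the authors' FPKM (fragments scaled to gene length and an adjusted library total), the order of levels was wide. That total was 0.963 to 1.045 times the summed counts. IFI6 had the highest level, 307 ± 177 FPKM in KO bleomycin, 611 ± 368 in KO control, 149.7 ± 7.49 in WT bleomycin and 162 ± 51.9 in WT control (SD, n = 3 each). ISG15 came next in every group, with 234 ± 78.3 FPKM in KO bleomycin, 198 ± 59.3 in KO control, 148 ± 21.8 in WT bleomycin and 73.2 ± 11.2 in WT control. The means of these 2 neighbours lay within 1 SD of each other in KO bleomycin and in WT bleomycin. BST2, a membrane protein that tethers budding virus, followed at 73.3 ± 22.6, 85.9 ± 5.09, 50.7 ± 4.98 and 54.6 ± 2.86 FPKM in KO bleomycin, KO control, WT bleomycin and WT control. At the low end, RSAD2 averaged 0.426 FPKM in KO bleomycin, 1.14 in KO control, 0.0752 in WT bleomycin and 0.194 in WT control. The sensors lay in between, with DDX58 at 8.96 ± 1.07 FPKM in WT control and DHX58 at 3.00 ± 0.692 FPKM.

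Of the other interferon pathway genes, 79 were listed and 64 could be tested. Ligand transcripts were nearly absent: IFNB1 had 0 to 4 counts and IFNL1 0 to 1 count in every library. IFNA1 had 8 counts in KO bleomycin replicate 2 and 0 to 2 counts in each other library. Of 10 ligand genes IFNE, an epithelial type I interferon, was the only one tested. IFNE was at 3.41, 3.78 and 3.15 CPM in WT bleomycin, against 1.12, 2.13 and 1.68 CPM in WT control, and rose there (1.06, SE 0.27, edgeR adjusted p = 0.00584), with 2.48, 1.44 and 1.69 CPM in KO bleomycin, against 1.69, 2.12 and 1.53 CPM in KO control (0.06, SE 0.28, edgeR adjusted p = 0.882). TMEM173 (STING) passed in no comparison, and CGAS, the DNA sensor upstream of it, rose in WT bleomycin (0.40, SE 0.13, edgeR adjusted p = 0.0195) and was at 0.14 in KO cells (edgeR adjusted p = 0.415). Between genotypes 0 of 64 passed in control medium and 0 in bleomycin, with 15 and 16 of 64 without overlap and higher in KO (6.83% and 8.99% of all genes), 2 and 2 without overlap and lower (5.41% and 9.60%), and medians of 0.05 and 0.12. At an unadjusted p under 0.05, 14 of the 64 were higher and 1 lower in control medium, against 6.48% and 3.46% of all genes. In bleomycin 9 were higher and 1 lower, against 3.28% and 3.33%. Of these 64, 32 were classed as other interferon-induced genes. Their median was 0.18 in control medium, with 25 above 0 and 7 below, and 0.21 in bleomycin, with 30 above and 2 below. Over all genes 52.8% and 49.9% were above 0.

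With bleomycin, 9 of the 64 rose and 17 fell in KO cells, and 12 rose and 21 fell in WT cells (edgeR). Over all genes 22.5% rose and 20.7% fell in KO cells, and 23.9% rose and 19.6% fell in WT cells. GBP2, an interferon-induced GTPase, was at 6.54, 8.77 and 5.87 CPM in KO bleomycin, against 23.6, 22.1 and 20.7 CPM in KO control, and at 6.87, 5.22 and 7.75 CPM in WT bleomycin, against 20.4, 23.0 and 22.1 CPM in WT control. It fell by 1.65 in KO cells (SE 0.17, edgeR adjusted p = 5.07e-06) and by 1.72 in WT cells (SE 0.17, edgeR adjusted p = 2.61e-06). GBP4, another GTPase of that family, fell by 2.08 in KO cells and 2.02 in WT cells, and SLFN11, which blocks replication after DNA damage, by 0.86 and 1.00. SLFN5 was at 142, 156 and 165 CPM in KO bleomycin, against 64.2, 37.9 and 60.2 CPM in KO control, and at 172, 174 and 163 CPM in WT bleomycin, against 48.7, 52.2 and 47.4 CPM in WT control. It rose by 1.51 in KO cells (SE 0.15, edgeR adjusted p = 5.18e-06) and by 1.78 in WT cells (SE 0.16, edgeR adjusted p = 9.27e-07). TRIM5, a restriction factor of retroviruses, rose by 0.66 in KO cells and 0.86 in WT cells, and STAT3 by 0.61 and 0.54. TBK1, a kinase that activates IRF3, rose by 0.53 in KO cells and 0.58 in WT cells. TRIM14 fell by 0.83 in KO cells and 0.59 in WT cells, and PARP12 by 0.90 and 0.63.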

How the data were processed

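Messenger RNA of Beas-2b cells was sequenced in 12 libraries, 3 for each of 4 groups. The authors deposited whole-number counts per gene and FPKM values. Per the submitters' processing notes, the tools used were HISAT2 2.0.5 for alignment and, for counting, featureCounts 1.5.0-p3. The build, the strand setting and the handling of reads that match several genes are not given in the sources used here. The deposited coordinates of all 43 genes matched GENCODE 29 (GRCh38). There were 0 value columns without a sample and 0 rows without a gene name.

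Counts were filtered with filterByExpr, scaled by TMM and tested with edgeR 4.0.16 in R 4.3.3, with its quasi-likelihood test, 1 fit of the 4 groups and Benjamini-Hochberg adjustment over 16702 genes at a threshold of 0.05. The fold changes are edgeR's, and SEs are those of its test. Comparisons share libraries: each control group enters a genotype and a bleomycin comparison. The alternatives were DESeq2 1.42.0, DESeq2 size factors, no filter, limma 3.58.1 on log2(FPKM + 1) or log2(FPKM + 0.1) with or without a minimum of 0.5 FPKM in 3 libraries, the 2 groups alone, a replicate block, and leaving out each library. The procedure was tested on simulated data for KO bleomycin against KO control only, with counts drawn independently for each gene. That simulation held no shifts shared between genes and did not cover the genotype comparisons or the interaction. The labels give no batch, and the design text calls the replicates biological, without saying which cultures or clones they came from, so p-values measure the spread between these libraries. The limit for a count of 0 is 3 counts per library and covers counting error only.

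The 43 genes and the other lists were chosen with earlier results of these data known. Genes given in full were those with a mean of at least 1 CPM past the threshold in any of 5 contrasts, up to 24 (23 qualified). IFI6, IFITM1, CXCL10, MX1, MX2 and others outside that rule were named after their values were seen. Promoter sequences are those of RefSeq, whose start can differ from the deposited gene start. The values of 1 gene of the pathway list are not reported here.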

Additional observations from a re-analysis of the deposited data

How the results depend on the processing

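Counts of called genes depended on the test more than medians did, and no called value changed sign under an alternative. Higher in KO control than in WT control were 2 of 43, but 17 by DESeq2, 20 without a filter, 1 with limma on log2(FPKM + 1), 0 with log2(FPKM + 0.1), 0 with log2(FPKM + 1) and no filter, and 0 with the 2 groups alone. The replicate block gave 4. Over all genes, 18 were called higher in the main fit, 145 by DESeq2, 211 without a filter and 7 with the block. With limma they were 9, 7 and 3 in the order above, and with the 2 groups alone 0. Higher in KO bleomycin than in WT bleomycin were 0, but 5 by DESeq2, 11 without a filter and 4 with the 2 groups alone. Over all genes these fits called 1, 26, 33 and 162 higher. Decreases under bleomycin in KO cells numbered 16, but 10 with limma on log2(FPKM + 1) and no filter, and 8 with the 2 groups alone. Over all genes these fits gave 3453 of 16702, 2469 of 38341 and 2238 of 15703 decreases. In WT cells decreases among the 43 numbered 11, but 5 with limma on log2(FPKM + 1) and 4 with limma and no filter. Over all genes these fits gave 3272 of 16702, 3041 of 16205 and 2551 of 38341. The cause of these differences was not tested.

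Leaving out 1 library at a time gave 8 to 25 decreases and 2 to 3 increases in KO cells, 5 to 15 decreases and 5 to 7 increases in WT cells, 0 to 5 genes higher in KO control and 0 to 2 higher in KO bleomycin. Over all genes these fits gave 2677 to 3914 decreases and 3189 to 4405 increases in KO cells. In WT cells they gave 2627 to 4610 decreases and 3449 to 5133 increases. Between genotypes 0 to 116 genes were higher in KO control and 1 to 159 in KO bleomycin. The medians over the 43 genes ran from -0.72 to -0.37 for the KO response, -0.42 to -0.13 for the WT response, 0.61 to 1.01 for KO over WT in control medium, 0.31 to 0.72 in bleomycin, and -0.36 to 0.068 for the interaction. In no setting run was an interaction called among the 43 genes, while over all genes there were 4 with DESeq2, 13 without a filter, 2 with limma and no filter, 9 without KO control replicate 2 and 0 in the other settings that left out 1 library. Leaving out replicate 2 of both KO groups, chosen after seeing the data, gave 20 genes higher in KO control, 1 higher in KO bleomycin, 28 decreases in KO cells and a median interaction of -0.47. Over all 17062 genes of that fit, 166 were higher in KO control, 146 were higher in KO bleomycin and 3580 fell in KO cells. Removing mitochondrial chromosome genes, also chosen after seeing the data, and using DESeq2 size factors moved no count by over 1.5 times.

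Replicate numbers did not pair the libraries: deviations of same-numbered libraries from their group means correlated between -0.128 and 0.109. With the block, OAS1 in KO cells (edgeR adjusted p = 0.0664) and IFIT2 (0.0627) and PARP9 (0.0527) in WT cells missed the threshold. Depth limits RSAD2, CMPK2 and CXCL10, which had 4 to 98, 4 to 87 and 1 to 31 counts per library.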
